A study of Mus musculus with 4 samples.

Results

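The genes of glucose uptake, glycolysis, lactate handling, glycogen and the pentose phosphate branch were examined in the left ventricle of mice with and without STIM1, which senses the calcium store of the cell and opens Orai channels. The members were 37 genes listed by symbol, of the 16390 genes that the array annotation names, and measured expression played no part in the rule. The list was nevertheless drawn up with earlier results of these data known. A probe was paired with 35 of them, and 36 probes in all, since Aldoa has 2. Ppp1r3c and G6pdx had no paired probe and were not analysed here, and the Gapdh probe had no value on any array. The other 34 had a value on all 4 arrays. Of these, 31 reached the level filter applied to all genes, a mean log2 intensity of at least 4.87 (an intensity of 29.3). Phka1 (5.02) and Phkg1 (5.09) lay just inside it. Pfkfb2 (4.62), Slc16a3 (3.95) and Phkb (2.50) lay below it and are given by value only.

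The 4 groups were male C57BL/6 mice aged 14 weeks, wild type (WT) or STIM1 KO, after sham surgery or transverse aortic constriction (TAC), with 1 array of left ventricular RNA each. TAC ties the aortic arch around a wire of 0.3 mm, which loads the left ventricle with pressure. It was done at 10 weeks of age, and the hearts were taken 4 weeks later. The average heart weight to body weight values in the labels, which carry no unit, were 4.1 (sham) and 6.7 (TAC) in WT and 4.5 (sham) and 4.9 (TAC) in STIM1KO. The labels do not say how STIM1 was deleted, in which cells, or whether an array carried RNA of 1 mouse or of several.

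Glucose enters the heart muscle cell through the transporters GLUT4 and GLUT1, is trapped by hexokinase, and is either split to pyruvate by glycolysis or stored as glycogen. Many steps exist as isoforms from separate genes, one typical of striated muscle and another of most other tissues or of the fetal heart. The adult heart burns mainly fatty acids, and pressure overload is known for moving it toward glucose. Pyruvate and lactate are interconverted by tetramers of the LDHA and LDHB subunits, LDHB being the heart form.

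With 1 array per group there is no replicate, so no test was possible and every difference below compares arrays. Differences are log2 differences of quantile-normalized intensities, and 1.5-fold corresponds to 0.58. The error of a probe was estimated from 50 genes with 2 probes above the filter. For TAC against sham its SD was 0.27 in WT and 0.42 in STIM1KO, and for STIM1KO against WT it was 0.29 after sham and 0.38 after TAC. These are close to the SD across all 7020 genes that passed (0.25, 0.42, 0.29 and 0.42), so a difference seen with 1 probe is open to error of that probe. The STIM1KO TAC array stood apart. It held the highest of the 4 values for 37.4% of genes and the lowest for 36.1%, where 25% would be an even share. The WT response and the sham comparison do not use it. Stim1 itself was lower on the STIM1KO arrays, at an intensity of 41.6 (sham) and 33.9 (TAC) in WT and 20.7 (sham) and 13.8 (TAC) in STIM1KO. Of 9 cardiomyocyte markers measured, 8 passed the filter, with only Ryr2 below it. Of 7 skeletal muscle markers measured, Tnni2 and Pvalb passed and the others, such as Myh4 and Tnnt3, were dim on every array.

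Between the TAC arrays, several isoform pairs of glycolysis parted. The muscle enolase Eno3 (0.88, 1.84-fold) and the muscle phosphoglycerate mutase Pgam2 (0.63) were higher on STIM1KO TAC than on WT TAC. All 10 muscle isoforms that passed the filter (Aldoa, Eno3, Gys1, Hk2, Pfkm, Pgam2, Phka1, Phkg1, Pygm and Slc2a4) lay above 0, with a median of 0.30, but only Eno3, Pgam2 and Phka1 reached 1.5-fold. Pygm (0.08), Phkg1 (0.10), Slc2a4 (0.12), Aldoa (0.26), Pfkm (0.29), Gys1 (0.31) and Hk2 (0.32) lay within the probe SD of 0.38. Phka1 (1.07) passed the level filter through the STIM1KO arrays, where it was high, and lends no support to the count. Of 8 non-muscle isoforms, Eno1, Hk1, Pfkp, Pgam1, Pygb and Slc2a1 lay below 0 and Aldoc and Pfkl above, with a median of -0.19. The heart lactate dehydrogenase Ldhb was higher by 0.67, while Ldha differed by -0.49. Over all genes the median was 0.01, and 51.1% lay above 0. With median centring or values as deposited, 9 of the 10 muscle isoforms lay above 0, Pygm being the exception, and with the mean of both Aldoa probes the exception was Aldoa. The non-muscle count was 6 of 8 under each of these settings. The isoform classes were chosen with earlier results of these data known, so these counts are no independent support.

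At 1.5-fold, 5 of the 31 genes were past the threshold between the TAC arrays, all higher: Eno3, Ldhb, Pfkfb1, Pgam2 and Phka1. Over all genes 14.5% were past it, 6.31% higher and 8.22% lower, so the share of 16.1% for the pathway is near the background. With median centring or values as deposited the 31 genes had 3 higher and 2 lower. With median centring, all genes had 344 higher and 741 lower, against 443 and 577 with quantile normalization. At 2-fold only Phka1 was past it (background 1.97%). Phka1 passed the level filter through the STIM1KO arrays and lends no support to either count. The SD across the 31 genes was 0.42, as over all genes. Ldhb and Pgam2 did not reach 1.5-fold with median centring (0.53 for each) and with values as deposited (0.54 for each), whereas Ldha (-0.61 and -0.60) and Ugp2 (-0.67 with either) then passed it in the other direction.

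Setting each muscle isoform against its counterpart leaves out any constant per array, since a shift common to both cancels. Of 9 isoform pairs, with Pfkm in 2 of them and lactate dehydrogenase included, 7 had a higher difference in the muscle or heart member between the TAC arrays. Ldhb against Ldha was furthest apart, at 1.15 on the log2 scale, a 2.22-fold change of their ratio. Eno3 against Eno1 followed at 1.07, Pgam2 against Pgam1 at 0.99 and Pfkm against Pfkp at 0.71. Between 2 probes of 1 gene the corresponding SD was 0.54. Slc2a4 against Slc2a1 (0.54) and Hk2 against Hk1 (0.51) pointed the same way, at about the size of that spread. Pygm against Pygb (0.09), Pfkm against Pfkl (-0.02) and Aldoa against Aldoc (-0.23) did not separate. Between the TAC arrays, the 9 pair values kept their sign and their side of 1.5-fold under median centring, values as deposited and an offset of 5.49 intensity units before log2. Median centring and values as deposited give identical pair values by construction, so they count as 1 setting here.

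**Figure D1:**
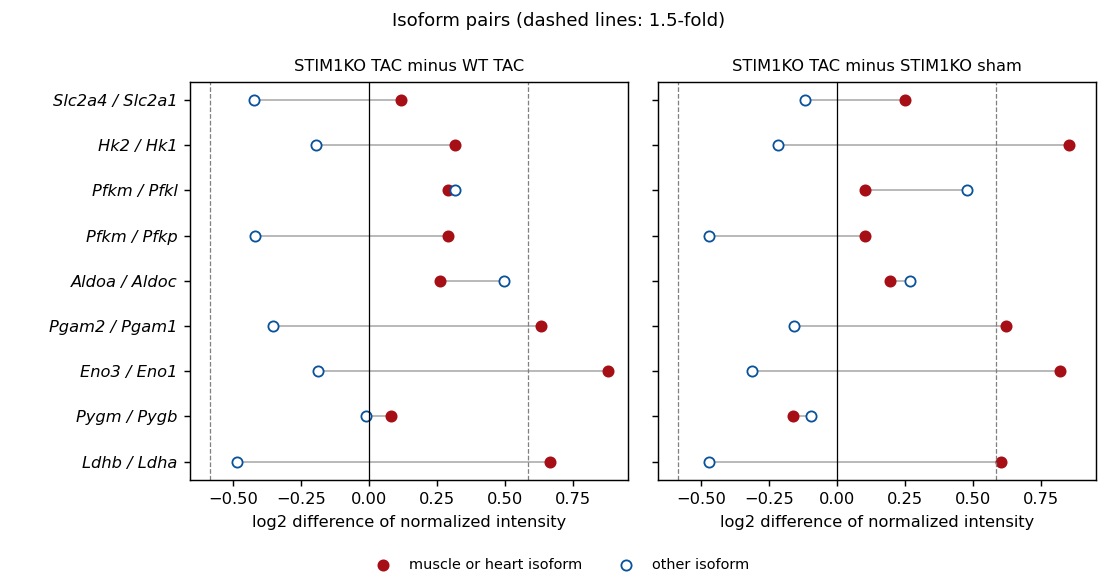
Log2 differences of normalized intensity (horizontal axis) for each isoform pair, filled for the muscle or heart member and open for the other, in STIM1KO TAC against WT TAC (left) and against STIM1KO sham (right); dashed lines mark 1.5-fold and each point is 1 probe on 1 array per group. Eno3, Pgam2 and Ldhb lie right of the dashed line in both panels (0.88, 0.63 and 0.67 on the left) while Eno1, Pgam1 and Ldha lie left of 0.

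Markers of other cells also differed between the TAC arrays, in both directions. The summed intensity of 8 endothelial markers was 3578 (sham) and 3267 (TAC) in WT and 2533 (sham) and 2185 (TAC) in STIM1KO. Of the 8, 7 were lower on STIM1KO TAC than on WT TAC, with a median of -0.65. On STIM1KO sham against WT sham, 0 of the 8 were higher, with a median of -0.38. In the same order, the summed intensity of 8 fibroblast markers was 5107, 4560, 4014 and 3284, with 5 of 8 lower between the TAC arrays. That order rests on Dcn, without which the sums were 1829, 1681, 1608 and 1851, higher on STIM1KO TAC than on WT TAC. The summed intensity of 9 cardiomyocyte markers was 209678, 223022, 225629 and 248247, with 4 of 9 above 0 between the TAC arrays and a median of 0.00. That median is the value of Mb, the brightest marker, at 66594.4 on both TAC arrays and 65551.1 on both sham arrays. Equal ranks give equal values under quantile normalization, so this median does not show an unchanged level. Without Mb the sums were 144127, 156427, 160077 and 181653. The 7 skeletal muscle markers summed to 136, 132, 144 and 157, with 6 of 7 higher and a median of 0.41, at these low levels. Macrophage markers summed to 2132, 2283, 1896 and 2404 (7 measured) and smooth muscle markers to 1153, 869.8, 1338 and 725.5 (4 measured). Without Acta2 the smooth muscle sums were 152, 171, 244 and 210.4, and 3 of the 4 markers were higher on STIM1KO TAC than on WT TAC (median 0.18). None of these markers was at 0. In whole tissue, fewer cells of a type and less RNA per cell cannot be told apart. The part of these markers in the isoform split was not tested.

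Between the TAC arrays, the 3 widest splits between isoforms were those of enolase, phosphoglycerate mutase and lactate dehydrogenase. Enolase makes phosphoenolpyruvate, and Eno3 is its muscle form. Its intensity was 7378 (sham) and 6158 (TAC) in WT and 6415 (sham) and 11320.1 (TAC) in STIM1KO. The STIM1KO TAC array stood above the other 3, which lay close together. Of all genes, 1.40% had a difference between the TAC arrays as high as that of Eno3. Eno1, the widespread form, was at 1131, 1049, 1144 and 921 on the same arrays, lowest on STIM1KO TAC.

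Phosphoglycerate mutase, the step before enolase, showed the same order on the STIM1KO TAC array. Pgam2, the muscle form, was at 3115 (sham) and 3614 (TAC) in WT and 3643 (sham) and 5611 (TAC) in STIM1KO. Pgam1, the form of most other tissues, was at 831, 1066.5, 933 and 836, highest on WT TAC. Thus Pgam2 was highest on the array of the banded STIM1KO heart and Pgam1 on that of the banded WT heart.

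Between the TAC arrays enolase parted more than phosphoglycerate mutase (1.07 against 0.99), but its promoters are not shown. Those of Pgam2 and Pgam1, which also diverged, are shown with a different motif marked in each. Each is the RefSeq window from 250 bases before to 50 after the start (build GRCm38.p6, gene strand). Pgam2 lies at chr11:5803747-5804046 on the minus strand, with a match to the MEF2 consensus, bound by a muscle transcription factor family, in capitals. Pgam1 lies at chr19:41911621-41911920 on the plus strand, with a match to ACGTG, the core bound by hypoxia-inducible factors, in capitals.
Pgam2: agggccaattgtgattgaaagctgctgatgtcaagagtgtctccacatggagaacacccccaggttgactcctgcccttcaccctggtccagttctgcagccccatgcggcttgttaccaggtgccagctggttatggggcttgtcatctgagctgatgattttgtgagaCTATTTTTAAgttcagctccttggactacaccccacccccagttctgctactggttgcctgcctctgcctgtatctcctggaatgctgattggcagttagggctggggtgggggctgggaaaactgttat
Pgam1: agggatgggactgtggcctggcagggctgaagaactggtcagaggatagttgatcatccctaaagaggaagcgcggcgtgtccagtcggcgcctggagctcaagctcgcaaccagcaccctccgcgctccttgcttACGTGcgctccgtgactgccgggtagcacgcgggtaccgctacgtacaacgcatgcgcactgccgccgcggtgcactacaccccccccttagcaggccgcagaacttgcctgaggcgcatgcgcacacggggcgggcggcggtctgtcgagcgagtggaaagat

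Lactate dehydrogenase had the widest split between the TAC arrays. Ldhb was at 9707 (sham) and 11840.1 (TAC) in WT and 12364 (sham) and 18800.4 (TAC) in STIM1KO. Ldha, the form of fast muscle and of cells short of oxygen, was at 4511, 4641, 4595 and 3314. Ldha was nearly level on 3 arrays and lowest on STIM1KO TAC, the array on which Ldhb was highest. The lactate carrier Slc16a1 (MCT1) was at 311, 315, 389 and 424, higher on the STIM1KO arrays than on the WT arrays. Slc16a3 (MCT4), typical of glycolytic cells, was dim, at 14.1, 14.0, 14.2 and 20.3.

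The promoters of this pair, which also diverged between the TAC arrays, are shown with ACGTG matches in capitals. The Ldha window with the start farthest upstream, of 2 listed, is chr7:46845554-46845853 on the plus strand. It held 5 matches at 3 places, because the palindrome CACGTG occurs 2 times and counts on both strands. The other Ldha window held none. The Ldhb window, chr6:142507908-142508207 on the minus strand, also held none.
Ldha: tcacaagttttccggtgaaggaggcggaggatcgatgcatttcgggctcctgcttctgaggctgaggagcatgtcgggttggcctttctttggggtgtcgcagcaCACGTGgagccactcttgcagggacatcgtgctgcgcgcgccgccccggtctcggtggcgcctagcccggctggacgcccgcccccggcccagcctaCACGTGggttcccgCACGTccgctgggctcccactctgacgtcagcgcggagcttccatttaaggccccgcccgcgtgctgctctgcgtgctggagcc
Ldhb: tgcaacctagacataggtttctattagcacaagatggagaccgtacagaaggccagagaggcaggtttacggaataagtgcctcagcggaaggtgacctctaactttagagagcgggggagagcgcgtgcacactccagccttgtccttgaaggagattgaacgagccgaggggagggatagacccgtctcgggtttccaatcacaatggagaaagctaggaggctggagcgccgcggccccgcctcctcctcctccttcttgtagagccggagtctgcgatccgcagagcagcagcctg

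Windows were listed for 36 of the 37 genes, 55 in all. ACGTG on either strand was in 25 of these windows (45.5%), against 19.6% of all 32851 windows in the table. CACGTG, which contains ACGTG, was in 7 (12.7% against 7.15%), and the MEF2 consensus in 2 (3.64% against 3.19%), those of Pgam2 and Pfkfb1. TATAAA was in 2 (3.64% against 13.6%). Neither the Eno3 window nor any of the 3 Eno1 windows held one of these motifs. A match is a string of letters in a window and no evidence of binding, and several windows can belong to 1 gene. The windows compared were not matched for base composition, and no reason for these shares was tested.

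The remaining late steps differed little. Pgk1, phosphoglycerate kinase, was at 3051 and 2857 in WT and at 3017 and 2618 in STIM1KO, sham first. Pkm, pyruvate kinase of muscle and most other tissues, was at 1106, 930, 980 and 856. Both were lowest on STIM1KO TAC, with a span over the 4 arrays of 1.17-fold for Pgk1 and 1.29-fold for Pkm. The probe of Pkm does not tell its splice forms apart in the annotation used here.

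**Figure D2:**
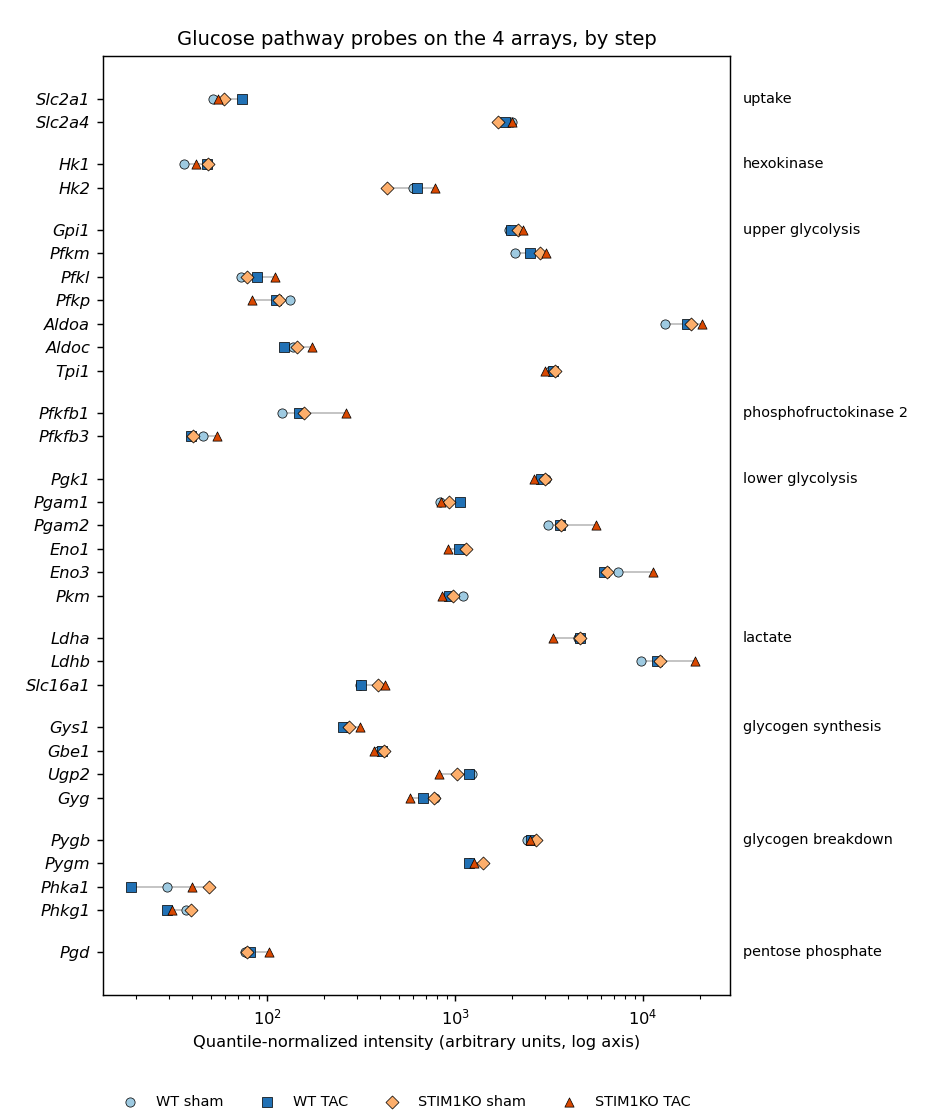
Quantile-normalized intensity (horizontal log axis, arbitrary units) of the 31 genes that passed the filter, by pathway step, with 1 symbol per array: circle WT sham, square WT TAC, diamond STIM1KO sham, triangle STIM1KO TAC. Positions are comparable along a row only; the triangles of Eno3, Pgam2, Ldhb and Pfkfb1 stand to the right of the other arrays and that of Ldha to the left.

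Among the transporters, Slc2a4 (GLUT4), which insulin moves to the cell surface, was at 2009 (sham) and 1844 (TAC) in WT and 1684 (sham) and 2003 (TAC) in STIM1KO. Slc2a1 (GLUT1), the basal transporter that is also the fetal form, was at 51.5, 73.1, 59.1 and 54.5. Slc2a1 was highest on WT TAC, the group with the highest heart weight to body weight, by 0.51 over WT sham, while the STIM1KO response was -0.12.

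Hexokinase traps glucose in the cell, and Hk2 is the isoform of muscle. Its intensity was 596 (sham) and 627 (TAC) in WT and 432 (sham) and 780 (TAC) in STIM1KO. The STIM1KO response of 0.85 (1.81-fold) started from the lowest value of the 4 arrays, and against WT TAC the STIM1KO TAC array differed by 0.32. Hk1, the widespread form, was at 36.2, 47.7, 48.4 and 41.7, lowest on WT sham.

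In upper glycolysis, Pfkm, the muscle phosphofructokinase at the committed step, was at 2079 (sham) and 2491 (TAC) in WT and 2841 (sham) and 3051 (TAC) in STIM1KO. Its liver counterpart Pfkl was at 72.2, 87.9, 78.6 and 109.6. The platelet form Pfkp went the other way, at 132, 111, 116 and 83.3. Pfkm and Pfkl were highest and Pfkp lowest on STIM1KO TAC.

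Aldolase splits fructose bisphosphate, and the brighter Aldoa probe was at 13038 (sham) and 17056 (TAC) in WT and 17885 (sham) and 20449 (TAC) in STIM1KO. The dimmer Aldoa probe was at 1486, 2257, 1998 and 1747. Both probes had WT sham as the lowest array. They parted on STIM1KO TAC, which was the highest array for the brighter probe and the next to lowest for the dimmer one. The WT response was 0.39 and 0.60, the latter past 1.5-fold, and the STIM1KO response was 0.19 and -0.19. Between the TAC arrays they differed by 0.26 and -0.37, so no direction is settled for Aldoa there. Aldoc, the brain form, was at 138, 123, 144 and 174.

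Gpi1, glucose phosphate isomerase, and Tpi1, triose phosphate isomerase, were among the steadiest genes. Gpi1 spanned 1.18-fold over the 4 arrays and Tpi1 1.12-fold.

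The bifunctional PFKFB enzymes make and degrade the fructose bisphosphate isomer that activates phosphofructokinase. Pfkfb1, the form of liver and muscle, was at 119.8 (sham) and 148 (TAC) in WT and 156 (sham) and 263 (TAC) in STIM1KO. On STIM1KO TAC it was past 1.5-fold against STIM1KO sham (0.75) and WT TAC (0.83), also with median centring, values as deposited and the offset. Pfkfb3, the inducible form, was at 45.6, 39.3, 40.1 and 54.4, again highest on STIM1KO TAC. Pfkfb2, the heart form, was below the filter, at 25.6, 19.8, 30.0 and 24.4.

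Of the 4 glycogen synthesis genes, 3 had negative values on STIM1KO TAC against both STIM1KO sham (median over the 4 of -0.24) and WT TAC (median -0.18). Ugp2, which makes UDP-glucose, was at 1235 (sham) and 1188 (TAC) in WT and 1026 (sham) and 824 (TAC) in STIM1KO. Gyg, the glycogenin primer, was at 779.8, 672, 770.4 and 572. Gbe1, the branching enzyme, was at 388, 406, 417 and 372. Gys1, muscle glycogen synthase, was the exception, at 265, 252, 273 and 313. None of the 4 reached 1.5-fold in any comparison with quantile normalization.

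Among glycogen breakdown genes, the phosphorylases were steady and phosphorylase kinase subunits varied more. Pygb, the brain phosphorylase that the heart also uses, spanned 1.12-fold over the 4 arrays, and Pygm, muscle phosphorylase, 1.18-fold. Phka1, the muscle alpha subunit of phosphorylase kinase, was at 29.5 (sham) and 19.0 (TAC) in WT and 49.0 (sham) and 40.0 (TAC) in STIM1KO. Both STIM1KO arrays lay above both WT arrays, by 0.73 after sham (1.66-fold) and 1.07 after TAC (2.11-fold). Phka1 sits at the edge of the filter, and on the WT TAC array it was under the intensity of 29.3. Phkg1, the catalytic subunit, was at 36.9, 29.3, 39.4 and 31.4, lower after TAC in either genotype. The beta subunit Phkb was too dim to read, at 6.60, 6.56, 6.62 and 3.59.

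In the pentose phosphate branch, Pgd, the second enzyme that makes NADPH, was at 76.4 (sham) and 80.7 (TAC) in WT and 78.0 and 102 in STIM1KO, highest on STIM1KO TAC.

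In the STIM1KO response to TAC, Hk2 (0.85), Eno3 (0.82), Pfkfb1 (0.75), Pgam2 (0.62) and Ldhb (0.60) were higher at 1.5-fold and no gene was lower. These are 5 of 31 (16.1%), near the 14.4% of all genes past it, 7.31% higher and 7.11% lower. At 2-fold none of the 31 was past the threshold (background 1.85%). The median over the 31 was -0.10, with 15 above 0 and 16 below, beside a median over all genes of -0.0045. Muscle isoforms were above 0 in 7 of 10 cases and non-muscle isoforms in 2 of 8, beside 49.4% of all genes. The median of the non-muscle isoforms was -0.14. With median centring, which gave all genes 380 higher and 666 lower (513 and 499 with quantile normalization), the count was 3, as Pgam2 (0.56) and Ldhb (0.45) did not reach it. This comparison and that of the TAC arrays share the STIM1KO TAC array, so their likeness is no separate evidence.

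In the WT response, differences were small. Only Phka1 was past 1.5-fold, at -0.64, which is 3.23% of the 31 genes against 2.85% of all genes (1.55% higher and 1.30% lower), and none was past 2-fold (background 0.313%). Slc2a1 (0.51), Hk1 (0.40), Aldoa (0.39), Pgam1 (0.36) and Pfkfb1 (0.30) were the highest. Non-muscle isoforms had a median of 0.18, with 5 of 8 above 0, and muscle isoforms a median of -0.04, with 4 of 10 above 0. The share above 0 over all genes was 47.3%. With the offset before log2, Phka1 was at -0.52.

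Between the sham arrays, 22 of 31 genes were above 0 in STIM1KO, with a median of 0.09. Over all genes 50.1% were above 0. With values as deposited the count was 18 of 31, with 44.1% of all genes above 0, and with median centring 24 of 31, with 54.4%. Phka1 (0.73) alone was past 1.5-fold, against 3.96% of all genes (1.23% higher and 2.74% lower), and none was past 2-fold (background 0.556%). Since Phka1 passed the level filter through the STIM1KO arrays, where it was high, its call is no support. Aldoa (0.46), Pfkm (0.45), Hk1 (0.42), Pfkfb1 (0.38) and Ldhb (0.35) came next, and Hk2 (-0.46) was the lowest. Muscle and non-muscle isoforms had similar medians here, 0.16 and 0.14, while single pairs parted in both directions, Hk2 against Hk1 at -0.88 and Pfkm against Pfkp at 0.64.

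The sham and the TAC comparison of genotypes share no array. Of the 31 genes, 14 were above 0 in both, among them Aldoa, Ldhb, Pfkfb1, Pfkm, Pgam2, Phka1 and Slc16a1, and 5 were below 0 in both, namely Gyg, Pfkp, Pgk1, Pkm and Ugp2. The sham values of Gyg and Pgk1 were near 0 and changed sign with median centring. Among the 14, those of Gys1 (-0.0076) and Pgd (-0.013) were below 0 with values as deposited. Pygm was below 0 between the TAC arrays with median centring and with values as deposited. The same sign in both was thus found for 61.3% of the pathway and for 62.2% of all genes. The responses of the genotypes share no array either, and had the same sign for 19 of the 31 genes (61.3%, against 60.3% of all genes). Gbe1, Hk1, Ldha, Pgam1, Pygb, Slc2a1 and Tpi1 were above 0 in WT and below 0 in STIM1KO. Aldoc, Eno3, Gys1, Pfkfb3 and Slc2a4 were the reverse. Pygb was at 0.0069 in STIM1KO with values as deposited.

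**Figure D3:**
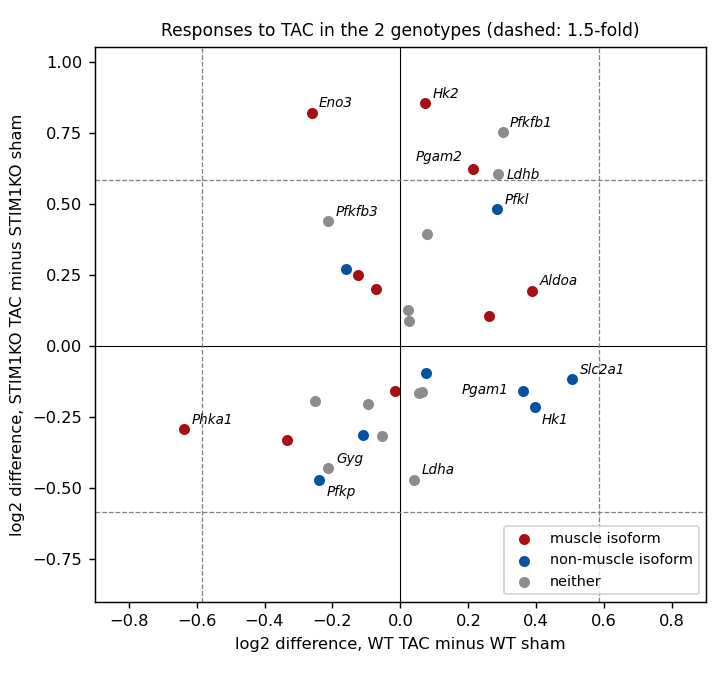
Log2 difference of TAC against sham in WT (horizontal axis) and in STIM1KO (vertical axis) for the 31 genes, coloured by isoform type, with dashed lines at 1.5-fold; each axis rests on 1 array per group and the axes share no array. Hk2, Eno3, Pfkfb1, Pgam2 and Ldhb lie above the upper dashed line (0.60 to 0.85), and Phka1 alone lies left of the left one (-0.64).

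In the STIM1KO response minus the WT response, Eno3 (1.08), Hk2 (0.78) and Pfkfb3 (0.65) were higher at 1.5-fold and Slc2a1 (-0.62) and Hk1 (-0.61) lower. These are 16.1% of the 31 genes, near the 14.1% of all genes past it (8.15% higher and 5.94% lower). At 2-fold only Eno3 was past it (background 2.15%). Hk2 against Hk1 was the pair furthest apart, at 1.39, followed by Eno3 against Eno1 at 1.28 and Pgam2 against Pgam1, Ldhb against Ldha and Slc2a4 against Slc2a1 at 0.83 or more, with a corresponding SD of 0.56 between 2 probes of 1 gene. Of the 9 pairs, 7 were above 0, with a median of 0.83. With the offset before log2, only Eno3 and Hk2 stayed past 1.5-fold. With median centring Pgam1 (-0.67) and Ldha (-0.66) were lower too, giving 3 higher and 4 lower. All genes then had 424 higher and 659 lower, against 572 and 417 with quantile normalization. With values as deposited Pgam1 (-0.60) and Ldha (-0.59) were past it and Hk1 (-0.57) was not.

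Of 46 other genes of these routes, 22 passed the filter. Between the TAC arrays none was higher at 1.5-fold and 3 were lower: Rpia (-0.77), an isomerase of the pentose phosphate route, Phkg2 (-0.69), the liver catalytic subunit of phosphorylase kinase, and Mpc1 (-0.64), of the mitochondrial pyruvate carrier. The 3 of 22 are near the share of all genes given above (14.5%, or 8.22% lower). Their median was -0.01. In the STIM1KO response Txnip (1.19), an inhibitor of glucose uptake, was higher, and Mpc1 (-0.67) and Stbd1 (-0.64), which binds glycogen, were lower. These 3 of 22 are near the 14.4% of all genes past it. Stbd1, at 37.6, 27.7, 51.8 and 33.2 on the same arrays, also lay around the filter intensity. Rpia (-0.67) was the only one of the 22 past 1.5-fold between the sham arrays, beside 3.96% of all genes. None was in the WT response, beside 2.85% of all genes. The muscle fructose bisphosphatase Fbp2 was at 451 (sham) and 327 (TAC) in WT and 335 (sham) and 473 (TAC) in STIM1KO, a difference of responses of 0.96. Txnip (0.67) and Mpc1 (-1.13) were the others past 1.5-fold in that difference. These 3 of 22 are near the 14.1% of all genes past it.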

How the data were processed

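The values are linear intensities as the authors deposited them, 1 for each probe on each array, scaled to a median of about 20 (19.99 to 20.00 in the file). Per the labels, amplified RNA carried Cy5 as its only dye. Scanner and background correction: not given in the sources used here. Probes were named from the platform annotation, which names 16631 of 23473, with symbols updated through GRCm38.p6.

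The 19607 probes with a value on all 4 arrays were taken to log2 and quantile-normalized (Python 3.11.15, numpy 2.4.6). The brightest probe stood for a gene. Of 14039 genes, the 7020 at or above the median level were compared, with no test. Normalization, differences and counting were tested on simulated data whose noise was smaller than the probe error given above. That test does not bear on probe error. The number of arrays limits the precision.

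Every gene of the list is named. The members, isoform classes and lists were chosen with earlier results of these data known. Alternatives were median centring, values as deposited, an offset of 5.49, other filters (none, 75th percentile), the mean over probes and a 2-fold threshold. Whether probes cross-hybridise between isoforms was not tested.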

Additional observations from a re-analysis of the deposited data

Results flagged for a closer look

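4 of the 31 genes (12.9%) had opposite signs of the response to TAC in the 2 genotypes under quantile normalization, median centring and values as deposited, with responses that differed by 1.5-fold or more under quantile normalization. Of all genes, 9.33% met the same conditions. The difference of responses (STIM1KO minus WT) was 1.08 for Eno3 (-0.26 in WT, 0.82 in STIM1KO) and 0.65 for Pfkfb3 (-0.21 and 0.44). It was -0.62 for Slc2a1 (0.51 and -0.12) and -0.61 for Hk1 (0.40 and -0.22), whose difference was -0.57 with values as deposited. With 1 array per group none of these differences was tested.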

How the results depend on the processing

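No paired analysis was possible because each group has 1 array, and no replicate could be left out. The counts at 1.5-fold moved most with the threshold. At 2-fold they were 0 for each response, 0 for STIM1KO sham against WT sham, and 1 each for STIM1KO TAC against WT TAC and for the difference of responses. With the 75th percentile filter, which leaves 24 of the 31 genes, they were 0 for the WT response, 0 between sham arrays and 2 for the difference of responses. With the offset they were 0 in the WT response and 2 in the difference of responses. With median centring the STIM1KO response had 3. The pathway median in the STIM1KO response was 0.0069 with values as deposited. In the difference of responses it was 0.0040 with quantile normalization, -0.11 with median centring (all genes: -0.10) and -0.13 with the 75th percentile filter. The other counts stayed within 1.5 times and the other medians within 0.1. No gene past 1.5-fold changed sign. Dim probes, such as Phka1, Phkb and Slc16a3, limit what can be read.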

Other observations

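By array, 14 of the 31 genes had their highest value on STIM1KO TAC (45.2%, against 37.4% of all genes), and 13 had their lowest on WT sham (41.9%, against 26.1%). Only Hk2 and Slc2a4, the insulin-responsive uptake pair of muscle, were lowest on STIM1KO sham (6.45%, against 18.6%). Ldha, Pgam1 and Slc2a1 were the genes highest on WT TAC (9.68%, against 16.9%). Of 10 muscle isoforms, with Aldoa by its brighter probe, none was highest on WT TAC and none was lowest on STIM1KO TAC. The shares over all genes were 16.9% and 36.1%. The dimmer Aldoa probe was highest on WT TAC. These shares describe 4 arrays and were not tested.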
